A study of Mus musculus with 20 samples.

Results

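The genes described here are the integrins, the selectins and the proteins they bind, 33 symbols of a fixed list looked up by name in the count table. They make up 34 of its 46983 rows, because Itgam stands on 2 rows. By role they are 18 integrin alpha chains, 8 integrin beta chains and 7 ligands and selectins (Icam1, Icam2, Vcam1, Madcam1, Sele, Selp and Selplg). An integrin is a pair of an alpha and a beta chain, and only the pair reaches the cell surface, where it grips matrix proteins or partner proteins on other cells. Selectins are lectins of vessel walls, platelets and leukocytes that catch passing leukocytes by their sugars, after which leukocyte integrins bind Ig-family proteins such as ICAM-1 and VCAM-1 on the endothelium. In epithelia and carcinomas other integrins hold cells to the laminins of the basement membrane.

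RNA was sequenced from pancreatic tumours of mice on the C57BL/6 background, taken 2 weeks after cultured KPC cells, a mouse pancreatic cancer line, were placed orthotopically. The hosts were IL33-/- mice (IL33KO in the titles) or wild-type (WT) mice, and none was treated. There were 4 groups of 5 libraries: IL33KO sorted, WT sorted, IL33KO bulk and WT bulk. Sorted libraries held leukocytes selected on CD45 beads from dispersed tumours, and bulk libraries the whole tumour. The KPC cells came from culture for both genotypes, so the deletion is in the host and not in the implanted line. IL-33 is an alarmin, a cytokine released by damaged or stressed cells. The labels name 5 hosts per genotype without tying libraries to mice, and do not say whether sorted and bulk libraries share tumours, so a p-value here reflects how far these libraries scatter, part of which may be technical.

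Gene counts per library ran from 51.3 to 81.0 M, with a median of 59.5 M (M for mega), and the limit that a count of 0 allows, 3 counts, was worth 0.0371 to 0.0585 CPM (counts scaled to library size by TMM), counting error only. Il33 had counts in every library: 14.3 to 25.7 CPM in IL33KO sorted and 5.76 to 20.6 CPM in WT sorted libraries (log2 difference 0.47, SE 0.29, edgeR adjusted p = 0.524), and 37.0 to 56.3 CPM in IL33KO bulk and 53.6 to 66.7 CPM in WT bulk libraries (log2 −0.33, SE 0.13, adjusted p = 0.724). Which exons the deletion removes is not given, so these counts cannot check the genotype, and each library is called by its label. The selection was visible in Ptprc, which encodes CD45, with log2 differences between sorted and bulk libraries of 3.34 in IL33KO and 3.31 in WT hosts (SE 0.22 each). Markers of tumour epithelium did not go to 0 in the sorted libraries: 8 markers summed to 1775 to 2682 CPM in IL33KO sorted and 1022 to 2533 CPM in WT sorted libraries, against 6330 to 8957 CPM in IL33KO bulk and 6937 to 9010 CPM in WT bulk libraries.

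Set per kilobase of exon, so that genes can be compared, the highest member in the leukocyte libraries was Itgb2, the beta chain of LFA-1, Mac-1 and their relatives on leukocytes. It stood at 297 ± 63.1 CPM per kilobase in IL33KO sorted and 329 ± 63.7 in WT sorted libraries (SD, n = 5 each, as for all such values here). Itgax followed with 158 ± 26.4 and 171 ± 12.6 CPM per kilobase in the same order of groups. In IL33KO sorted libraries Itgb1 came next at 112 ± 13.6 and then Selplg at 92.6 ± 8.23 CPM per kilobase, while in WT sorted libraries Selplg stood at 120 ± 17.7 and Itgb1 at 114 ± 16.8, a gap smaller than either SD. Bulk tumour had another order. Itgb1 led with 164 ± 11.1 CPM per kilobase in IL33KO bulk and 165 ± 22.6 in WT bulk libraries, followed by Itga3 with 77.5 ± 13.0 and 76.8 ± 13.7. Below the top member these orders depend on the length used: with the longest transcript in place of all exons, Itga3 (91.0 in IL33KO bulk, 90.2 in WT bulk) came after both Vcam1 (135 and 129) and Itga6 (105 and 133), and Selplg was above Itgb1 in IL33KO sorted (171 against 119) and above Itgax in WT sorted libraries (222 against 203). Itga8, Itgb8, Itga10, Itga11 and Sele had no group mean above 0.317 CPM per kilobase of exon.

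**Figure D1:**
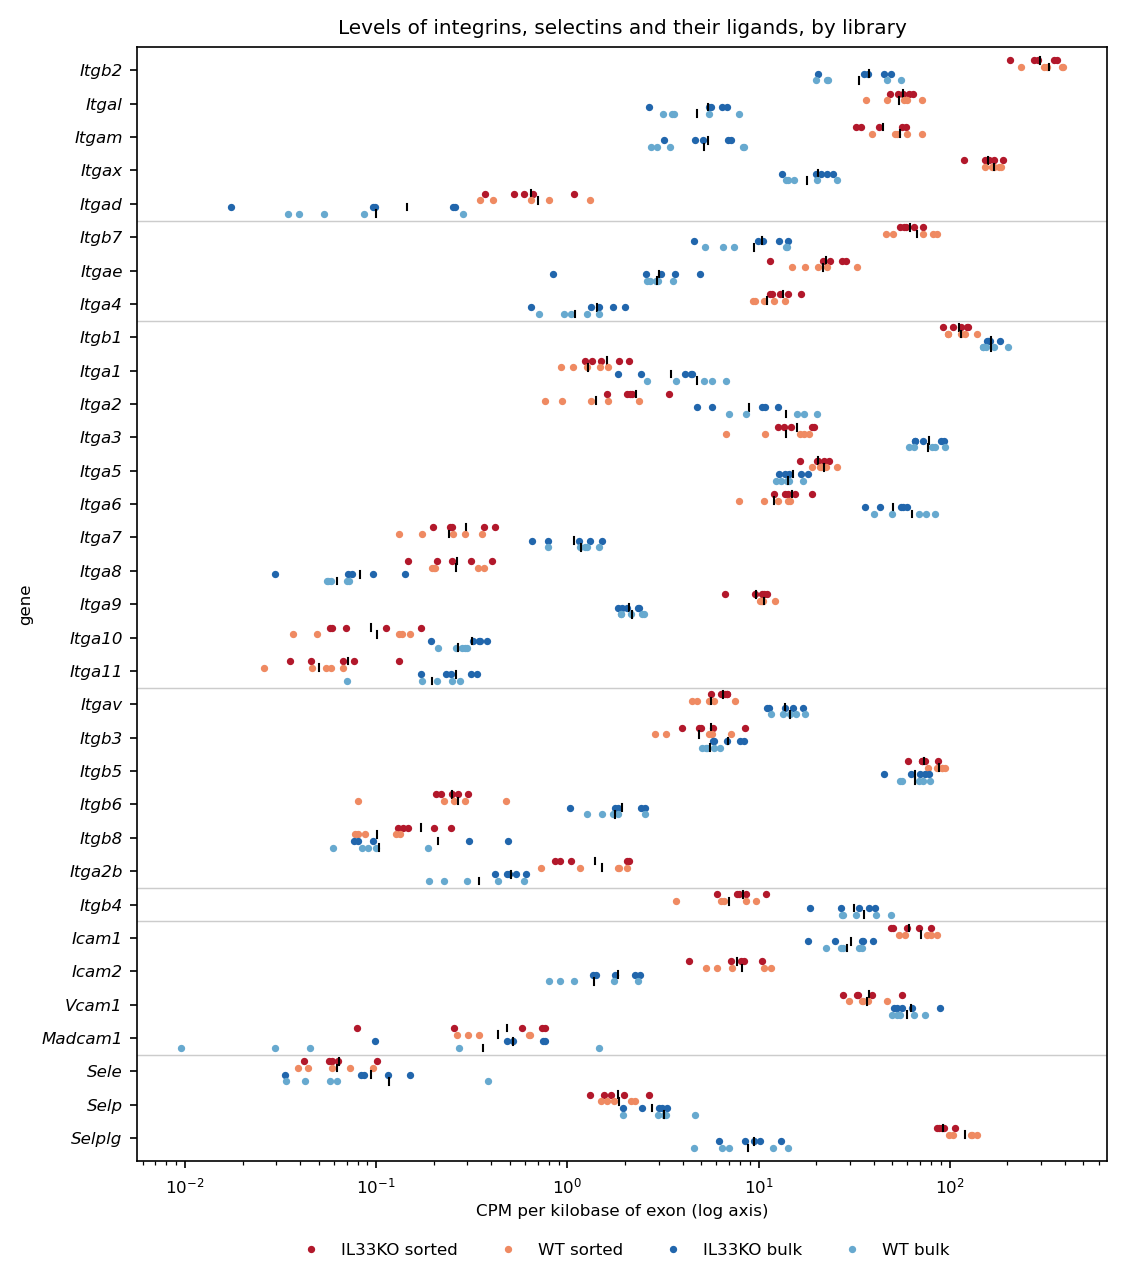
Level of each of the 33 symbols per library, in CPM per kilobase of exon on a log axis, ordered by role from the leukocyte beta-2 family at the top to the selectins at the bottom. Points are libraries in 4 groups of 5, ticks are group means, and the second Itgam row is left out. Itgb2 is at the right edge in the sorted groups, at 297 (IL33KO) and 329 (WT) on average, and at 37.6 (IL33KO) and 33.6 (WT) in bulk tumour.

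The comparison of sorted leukocytes with bulk tumour asks which of these adhesion genes the leukocytes carry. In IL33KO hosts 29 of 34 member rows passed the test, where 63% of all 18145 genes tested did. Of these, 16 were higher in sorted libraries and 13 lower, against 31.3% and 31.7% of all genes. In WT hosts 30 of 34 passed (68% of all genes), 17 higher and 13 lower, against 33.7% and 34.3%. With a 2-fold minimum added, 15 were higher and 10 lower in each genotype, where 18% and 18.5% of all genes were in IL33KO and 19.9% and 20.7% in WT hosts. The libraries did not overlap for 25 of 34 rows in IL33KO (48.8% of all genes) and 28 of 34 in WT hosts (50.5%). The median log2 difference of the members was 0.02 in IL33KO and 0.33 in WT hosts, beside 0.02 and −0.00 over all genes. The genotypes share no library here, and 16 rows were higher and 13 lower in both. How many of all genes were called alike in both was not counted, so these counts have no background beside them.

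The leukocyte beta-2 integrins were higher in sorted leukocytes in both genotypes, all 6 rows of them. Itgb2 read 628, 886, 1106, 1068 and 840 CPM in IL33KO sorted and 114, 109, 62.5, 151 and 137 CPM in IL33KO bulk libraries. It read 1184, 948, 1191, 721 and 979 CPM in WT sorted and 70.4, 61.0, 143, 69.2 and 170 CPM in WT bulk libraries. No bulk library came near a sorted one. On the log2 scale sorted minus bulk was 2.98 (SE 0.30, edgeR adjusted p = 8.7e-08) in IL33KO and 3.29 (SE 0.30, adjusted p = 1.84e-08) in WT hosts, a 7.89-fold and a 9.79-fold higher level in sorted libraries. In bulk tumour a smaller number of leukocytes and less RNA in each cannot be told apart, here and below.

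Itgal, the alpha chain of LFA-1, which binds ICAM-1 and ICAM-2, read 318 to 422 CPM in IL33KO sorted and 17.6 to 44.8 CPM in IL33KO bulk libraries, with log2 difference 3.39 (SE 0.28, adjusted p = 7.47e-09). In WT hosts it read 239 to 469 CPM in sorted and 20.8 to 52.0 CPM in bulk libraries (log2 3.52, SE 0.28, adjusted p = 3.08e-09). Itgax, which encodes CD11c of dendritic cells and many macrophages, differed by 2.96 (SE 0.19) in IL33KO and 3.26 (SE 0.19) in WT hosts. Itgad, the CD11d chain, was a low member at 1.66 to 4.87 CPM in IL33KO sorted and 1.56 to 5.91 CPM in WT sorted libraries, and its log2 differences were 2.15 (SE 0.63, adjusted p = 0.00592) in IL33KO and 2.80 (SE 0.65, adjusted p = 0.000799) in WT hosts. The 10 pan-leukocyte markers, such as Ptprc, Lcp1 and Coro1a, had log2 differences of 2.72 to 3.34 (median 3.16) in IL33KO and 3.07 to 3.60 (median 3.42) in WT hosts, and Itgb2, Itgam and Itgax lay inside these ranges in both genotypes, as did Itgal in WT hosts.

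Itgam, which encodes CD11b of neutrophils, monocytes and macrophages, was counted on 2 rows. The main row (ENSMUSG00000030786.18) lies on chromosome 7 at 128062640 to 128118491 (GRCm38, plus strand), in a cluster with Itgax (128129547 to 128150657) and Itgad (128154376 to 128223816). Itgal lies on the same chromosome at 127296260 to 127335138. The second row (ENSMUSG00000108596.1), called Gm49368 in GENCODE M21, spans 128062683 to 128128160, over Itgam and on towards Itgax. How the authors' counting divided reads in the exons they share cannot be read from the table, so the values of the second row are uncertain. The main row read 172, 213, 284, 297 and 163 CPM in IL33KO sorted and 25.9, 23.4, 16.0, 35.9 and 34.8 CPM in IL33KO bulk libraries. In WT hosts it read 359, 301, 265, 197 and 261 CPM in sorted and 14.8, 17.3, 41.4, 13.8 and 42.1 CPM in bulk libraries. Every sorted library was far above every bulk library, with log2 differences of 3.05 (SE 0.34, adjusted p = 2.93e-07) in IL33KO and 3.42 (SE 0.34, adjusted p = 5.65e-08) in WT hosts.

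The promoters of Itgam and Itgax are shown because both genes were among the members highest in leukocytes and both stand in the same cluster. Each is the 150 bases before the gene's start from RefSeq (GRCm38.p6, plus strand), written 5′ to 3′, at chr7:128062490-128062639 for Itgam and chr7:128129400-128129549 for Itgax. Capitals mark GAGGAA or, for the other strand, TTCCTC, a purine-rich word of the kind that ETS factors such as PU.1 of myeloid cells bind.
Itgam: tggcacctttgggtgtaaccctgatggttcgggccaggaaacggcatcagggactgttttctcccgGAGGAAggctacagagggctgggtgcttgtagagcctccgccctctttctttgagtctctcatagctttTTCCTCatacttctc
Itgax: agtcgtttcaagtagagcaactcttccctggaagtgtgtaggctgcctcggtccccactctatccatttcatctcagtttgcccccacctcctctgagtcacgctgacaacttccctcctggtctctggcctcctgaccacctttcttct
The Itgam window held the word at −84 on the plus strand and at −15 on the minus strand, relative to the start, and the Itgax window held no match. Over the 250 bases before each start, 7639 of 32851 windows in the RefSeq table (23.3%) held it on either strand, and so did 9 of the 22 members with a window. A member counted if any of its windows held the word, while the 23.3% is per window. The word stood in 3 of 9 members higher in sorted libraries in both genotypes and in 5 of 9 members lower in both. Other members, Itgb2, Itgal, Itgae and Selplg among them, had no window, so these counts do not describe the whole list. A match of these letters is a description and shows no binding.

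Itgb7, Itgae and Itga4, the chains used by lymphocytes of mucosal tissue, were also higher in sorted leukocytes in both genotypes. Itgb7 pairs with Itga4 to bind MAdCAM-1 or with Itgae (CD103) to bind E-cadherin. Itgae read 108, 99.7, 52.8, 131 and 125 CPM in IL33KO sorted and 14.1, 11.8, 3.86, 22.5 and 16.6 CPM in IL33KO bulk libraries. It read 151, 105, 68.1, 80.1 and 93.5 CPM in WT sorted and 13.3, 12.0, 16.3, 12.4 and 13.7 CPM in WT bulk libraries. Library 3 was the lowest IL33KO library in both compartments, and sorted and bulk libraries did not overlap. The log2 differences were 2.91 (SE 0.35, adjusted p = 7.51e-07) in IL33KO and 2.88 (SE 0.35, adjusted p = 6e-07) in WT hosts. Itga4, which also pairs with Itgb1 to bind VCAM-1, had the larger differences of 3.22 (SE 0.25) in IL33KO and 3.35 (SE 0.25) in WT hosts. Itgb7 differed by 2.57 (SE 0.30) in IL33KO and 2.84 (SE 0.31) in WT hosts.

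The chains of the beta-1 family split in direction. Itgb1, the most widely used beta chain, was lower in sorted leukocytes by a modest amount: 376 to 510 CPM in IL33KO sorted against 640 to 749 CPM in IL33KO bulk libraries (log2 −0.56, SE 0.11, adjusted p = 0.000316), and 400 to 564 CPM in WT sorted against 605 to 825 CPM in WT bulk libraries (log2 −0.53, SE 0.11, adjusted p = 0.000393). The laminin-binding chains Itga3 and Itga6 and the collagen-binding chains Itga1, Itga2, Itga10 and Itga11 were lower in sorted libraries in both genotypes, as was Itga7, another laminin-binding chain. Itga5, the fibronectin receptor chain, and Itga8 and Itga9, which bind other matrix proteins, were higher in both.

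Itga3 read 77.8, 72.4, 109, 84.6 and 112 CPM in IL33KO sorted and 531, 376, 512, 377 and 416 CPM in IL33KO bulk libraries. It read 38.7, 61.4, 98.7, 94.3 and 105 CPM in WT sorted and 459, 349, 369, 480 and 536 CPM in WT bulk libraries. The groups did not overlap, and WT sorted library 1, which had the lowest sum of tumour epithelium markers of all libraries (1022 CPM), was also the lowest for Itga3. The log2 differences were −2.28 (SE 0.23, adjusted p = 9.22e-08) in IL33KO and −2.46 (SE 0.23, adjusted p = 2.42e-08) in WT hosts. Itga6 differed by −1.75 (SE 0.21) in IL33KO and −2.41 (SE 0.21) in WT hosts, and Itga2, a collagen receptor chain, by −1.96 (SE 0.35) and −3.30 (SE 0.37). The 8 tumour epithelium markers, such as Epcam, Krt19 and Cdh1, had log2 differences of −2.56 to −1.71 in IL33KO and −2.24 to −1.83 in WT hosts. How much of the Itga3 and Itga6 signal in sorted libraries came from cells carrying those markers was not tested.

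Itga9 was at 51.5 to 84.8 CPM in IL33KO sorted and 14.1 to 18.2 CPM in IL33KO bulk libraries, with a log2 difference of 2.20 (SE 0.13, adjusted p = 1.25e-10). Its WT values were 78.2 to 93.3 CPM in sorted and 14.6 to 19.4 CPM in bulk libraries (log2 2.29, SE 0.13, adjusted p = 4.53e-11). In IL33KO and in WT hosts alike it had the smallest p of all members. Itga5 differed by only 0.44 (SE 0.12, adjusted p = 0.00291) in IL33KO and 0.62 (SE 0.12, adjusted p = 0.000102) in WT hosts. The TMM factors were 0.762 to 0.948 in sorted and 1.135 to 1.248 in bulk libraries, so differences this small depend on the scaling. Itga8 was higher by 1.67 (SE 0.34) and 2.06 (SE 0.35) on the log2 scale but at low levels, 1.08 to 2.98 CPM in IL33KO sorted and 1.44 to 2.70 CPM in WT sorted libraries.

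Among the alpha-v integrins, which bind RGD motifs and in several cases activate latent TGF-beta, the chains went different ways. Itgav itself was lower in sorted libraries, at 60.6 to 73.7 CPM in IL33KO sorted against 119 to 184 CPM in IL33KO bulk libraries (log2 −1.08, SE 0.15) and at 48.3 to 80.6 CPM in WT sorted against 125 to 188 CPM in WT bulk libraries (log2 −1.37, SE 0.15). Itgb6, an epithelial chain, was lower too, with log2 differences of −2.96 (SE 0.34, adjusted p = 5.15e-07) in IL33KO and −2.74 (SE 0.34, adjusted p = 8.5e-07) in WT hosts. Of the partners Itgb3, Itgb5, Itgb6 and Itgb8, Itgb5 had the highest level: 72.9 ± 9.58 CPM per kilobase in IL33KO sorted and 87.9 ± 7.05 in WT sorted libraries, against 65.8 ± 12.8 in IL33KO bulk and 66.1 ± 10.5 in WT bulk libraries. It passed as higher in sorted libraries in WT hosts (log2 0.41, SE 0.14, adjusted p = 0.0123), while the IL33KO value was 0.15 (SE 0.14, adjusted p = 0.356). The limit of scaling given for Itga5 holds for Itgb5 too. Itgb3 and Itgb8 passed in neither genotype, with log2 differences of −0.31 (95% interval −0.77 to 0.16) and −0.28 (−1.23 to 0.66) in IL33KO and −0.18 (−0.64 to 0.28) and −0.04 (−0.995 to 0.92) in WT hosts. Itga2b, the platelet partner of Itgb3, was higher in sorted libraries by 1.45 (SE 0.34) in IL33KO and 2.13 (SE 0.35) in WT hosts. The 7 platelet and megakaryocyte markers summed to 56.5 to 106 CPM in IL33KO sorted and 93.9 to 137 CPM in WT sorted libraries, against 16.2 to 22.9 CPM in IL33KO bulk and 9.34 to 34.4 CPM in WT bulk libraries, with none at 0. Of the 6 that could be tested, 2 were called higher in IL33KO hosts (median log2 difference 0.81, lowest −0.72). In WT hosts 3 of 6 were (median 1.49), and 0 were called lower in either genotype. The part of these markers in the Itga2b difference was not tested.

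Itgb4, the partner of Itga6 in hemidesmosomes, the anchors of epithelial cells, was lower in sorted libraries. It read 60.1, 42.7, 55.7, 53.8 and 76.6 CPM in IL33KO sorted and 284, 235, 188, 266 and 130 CPM in IL33KO bulk libraries (log2 −1.93, SE 0.25, adjusted p = 2.5e-06). In WT hosts it read 25.9, 46.4, 44.6, 68.1 and 60.1 CPM in sorted and 287, 191, 227, 347 and 193 CPM in bulk libraries (log2 −2.34, SE 0.26, adjusted p = 1.9e-07). Sorted and bulk libraries did not overlap, and WT sorted library 1 was again the lowest.

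Of the Ig-family ligands, Icam1 and Icam2 were higher and Vcam1 lower in sorted libraries in both genotypes. Icam1, an inducible ligand of LFA-1 and Mac-1, read 214 to 345 CPM in IL33KO sorted and 78.9 to 172 CPM in IL33KO bulk libraries (log2 1.01, SE 0.20, adjusted p = 0.000223), and 236 to 376 CPM in WT sorted and 97.8 to 152 CPM in WT bulk libraries (log2 1.29, SE 0.20, adjusted p = 1.41e-05). Icam2, a constitutive ligand of LFA-1 on endothelium and leukocytes, differed by 2.06 (SE 0.31) in IL33KO and 2.57 (SE 0.32) in WT hosts. Vcam1, the ligand of the Itga4 and Itgb1 pair, read 245 to 499 CPM in IL33KO sorted and 454 to 785 CPM in IL33KO bulk libraries (log2 −0.73, SE 0.19, adjusted p = 0.00255), groups that overlapped. In WT hosts it read 265 to 418 CPM in sorted and 440 to 660 CPM in bulk libraries, with no overlap (log2 −0.69, SE 0.19, adjusted p = 0.00341). Madcam1, the gut-homing ligand of the Itga4 and Itgb7 pair, stayed under 2.2 CPM everywhere and did not pass in either genotype; its WT bulk values ran over 0.0648, 0.0423, 0.387, 0.0137 and 2.10 CPM, the lowest of them below the limit of 3 counts.

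Selplg, which encodes PSGL-1, the leukocyte ligand of P-selectin, was higher in sorted libraries by 3.29 (SE 0.26, adjusted p = 5.02e-09) in IL33KO and 3.76 (SE 0.27, adjusted p = 7.41e-10) in WT hosts. The selectins it binds on vessel walls and platelets were low. Selp read 5.76 to 11.7 CPM in IL33KO sorted and 8.67 to 14.6 CPM in IL33KO bulk libraries (log2 −0.59, SE 0.22, adjusted p = 0.0229), and 6.64 to 9.96 CPM in WT sorted and 8.64 to 20.5 CPM in WT bulk libraries (log2 −0.79, SE 0.22, adjusted p = 0.00335). The groups overlapped in both genotypes. The IL33KO call was lost without IL33KO bulk library 1 (adjusted p = 0.0585), IL33KO sorted library 2 (0.0568) or IL33KO sorted library 5 (0.0605). Sele, E-selectin of inflamed endothelium, had 6 to 15 counts in IL33KO sorted, 6 to 13 in WT sorted, 7 to 32 in IL33KO bulk and 7 to 87 in WT bulk libraries, and passed in neither genotype. The 9 endothelial markers summed to 130 to 201 CPM in IL33KO sorted and 110 to 166 CPM in WT sorted libraries, against 71.8 to 127 CPM in IL33KO bulk and 72.4 to 139 CPM in WT bulk libraries, and none was at 0. The sum ran against most of the list: 1 marker was higher and 6 lower in sorted libraries in IL33KO (median log2 difference −0.96), and 1 was higher and 7 lower in WT hosts (median −1.21). Their part in Icam2, Selp and Sele was not tested.

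**Figure D2:**
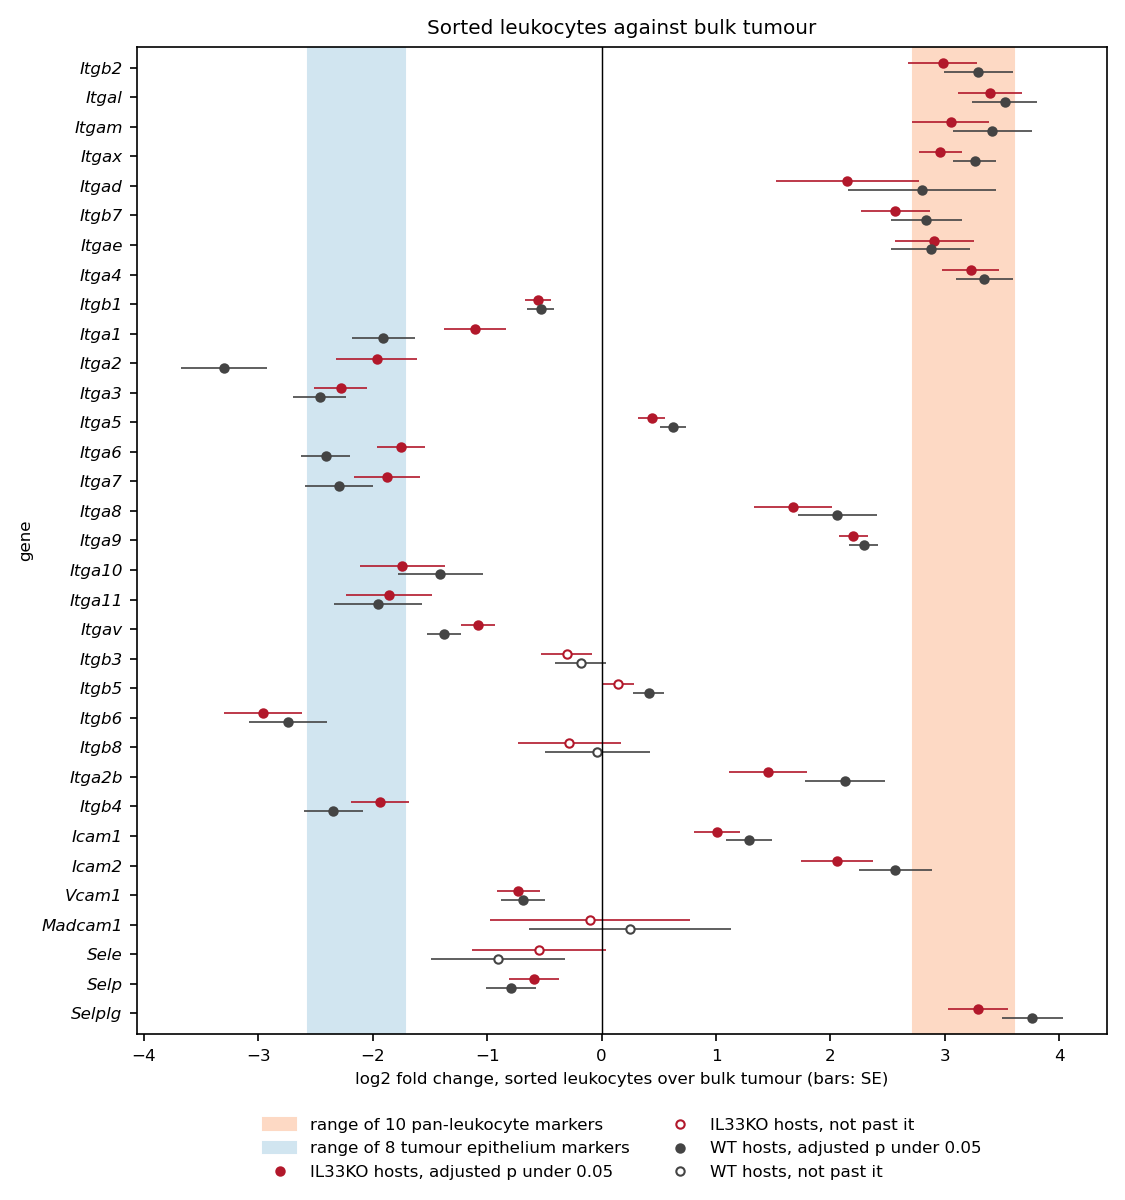
Log2 fold change of sorted leukocytes over bulk tumour for the 33 symbols, in IL33KO and WT hosts, with SE bars, and filled points where the edgeR adjusted p was under 0.05. Shaded bands give the range of 10 pan-leukocyte markers and of 8 tumour epithelium markers over both genotypes. The beta-2 chains and Selplg lie at or near the leukocyte band (Selplg 3.29 in IL33KO and 3.76 in WT hosts), except Itgad in IL33KO hosts, below it at 2.15. Itga3, Itga6 and Itgb4 lie at or near the epithelial band (Itga3 −2.28 and −2.46).

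The make-up of the chains shows the same contrast on the per-kilobase scale. The alpha chains that pair with Itgb2 (Itgal, Itgam, Itgax and Itgad) made up 70.3 ± 1.77% of all alpha chain level in IL33KO sorted and 73.4 ± 1.43% in WT sorted libraries, against 15.1 ± 3.92% in IL33KO bulk and 12.6 ± 4.97% in WT bulk libraries. Itga3 and Itga6 together held 8.38 ± 1.40% in IL33KO sorted and 6.80 ± 2.06% in WT sorted libraries, against 61.2 ± 5.25% in IL33KO bulk and 62.6 ± 3.53% in WT bulk libraries. Among beta chains Itgb2 held 52.8 ± 4.13% in IL33KO sorted and 53.6 ± 3.13% in WT sorted libraries, and Itgb1 held 51.7 ± 3.49% in IL33KO bulk and 52.0 ± 6.91% in WT bulk libraries. The summed level of the alpha chains of Itgb2 stayed close to that of Itgb2 itself in all groups: the ratio was 0.895 ± 0.106 in IL33KO sorted, 0.872 ± 0.114 in WT sorted, 0.851 ± 0.0931 in IL33KO bulk and 0.877 ± 0.147 in WT bulk libraries. These shares are descriptions and depend on the exon lengths used.

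**Figure D3:**
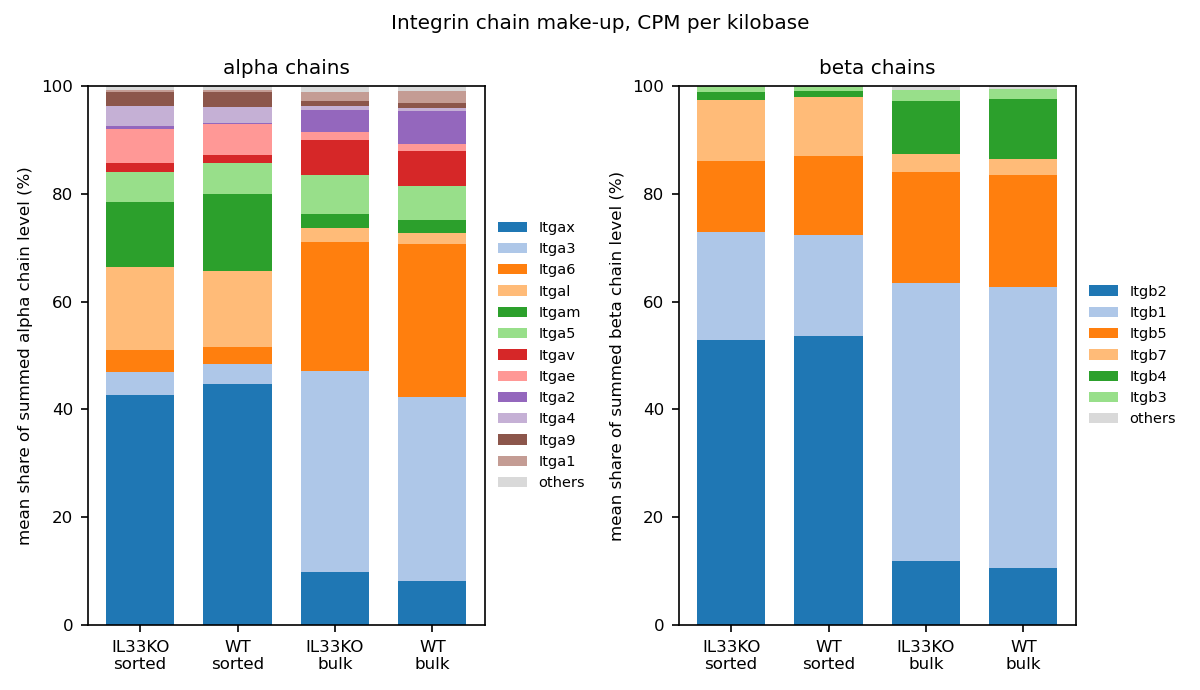
Mean share of each alpha chain (left) and beta chain (right) in the summed level of its kind, in percent of CPM per kilobase, for the 4 groups of 5 libraries. Itgax is the largest alpha block in sorted leukocytes (42.6% in IL33KO and 44.8% in WT), and Itga3 is the largest in bulk tumour with these exon lengths (37.2% in IL33KO and 34.3% in WT), though its level is below that of Itga6 with the longest transcript's length.

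Partner chains of known pairs were compared across the 10 sorted libraries, as log2 CPM minus the genotype mean, for 24 pairs in each compartment (48 in the family). Itgal and Itgb2, the chains of LFA-1, varied together (r = 0.866, permutation p = 0.00018, adjusted p = 0.00432; Spearman rho = 0.830, permutation p = 0.00322, adjusted p = 0.0193), and r was 0.857 without the 2 libraries farthest from the median of Itgal. So did Itga5 and Itgb1, the fibronectin receptor (r = 0.909, permutation p = 0.00101, adjusted p = 0.0121; rho = 0.903, permutation p = 0.00207, adjusted p = 0.0166), with r = 0.824 without the 2 farthest libraries. Itgam and Itgb2 did not pass with r = 0.825 (permutation p = 0.00943, adjusted p = 0.0566), and the remaining 21 pairs had r between −0.631 and 0.753. Chains of a pair share a library and its mix of cells, so these values do not single out the pair. In bulk tumour no pooled r is given, because the WT libraries fell apart by leukocyte level.

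That difference between bulk tumours ran through the members. The 10 pan-leukocyte markers summed to 967, 960, 728, 1033 and 1452 CPM in IL33KO bulk libraries and to 622, 621, 1081, 620 and 1399 CPM in WT bulk libraries. The 4 bulk libraries with the lowest Itgb2, given above, were IL33KO library 3 and WT libraries 1, 2 and 4, and the same 4 were lowest for Itgal, Itgam and Selplg. Itga2 read 90.2, 74.7, 40.6, 77.1 and 34.2 CPM in IL33KO bulk libraries and 124, 145, 61.5, 114 and 50.04 CPM in WT bulk libraries. In WT bulk it ran opposite to the leukocyte markers, while its lowest IL33KO libraries, 3 and 5, had the lowest and the highest marker sum. Itga6 had the same order of libraries in each group, at 539, 503, 391, 514 and 325 CPM in IL33KO bulk and 676, 759, 452, 624 and 364 CPM in WT bulk libraries. The sum of tumour epithelium markers did not mirror this, at 8957, 6948, 7902, 7591 and 6330 CPM in IL33KO bulk and 8317, 6937, 7479, 9010 and 7901 CPM in WT bulk libraries. Their mean log2 CPM was 8.93, 8.11, 9.29, 8.66 and 9.06 in IL33KO bulk and 8.71, 8.42, 8.59, 8.82 and 9.35 in WT bulk libraries. By that measure IL33KO libraries 3 and 5 and WT library 5 were the highest of their groups, and WT library 3 was not. The 8 acinar markers summed to 30.6, 24.6, 1814, 32.0 and 170 CPM in IL33KO bulk libraries. In WT bulk libraries they summed to 41.7, 38.1, 41.4, 38.5 and 9707 CPM. The part of acinar RNA in Itga2 and Itga6 was not tested.

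**Figure D4:**
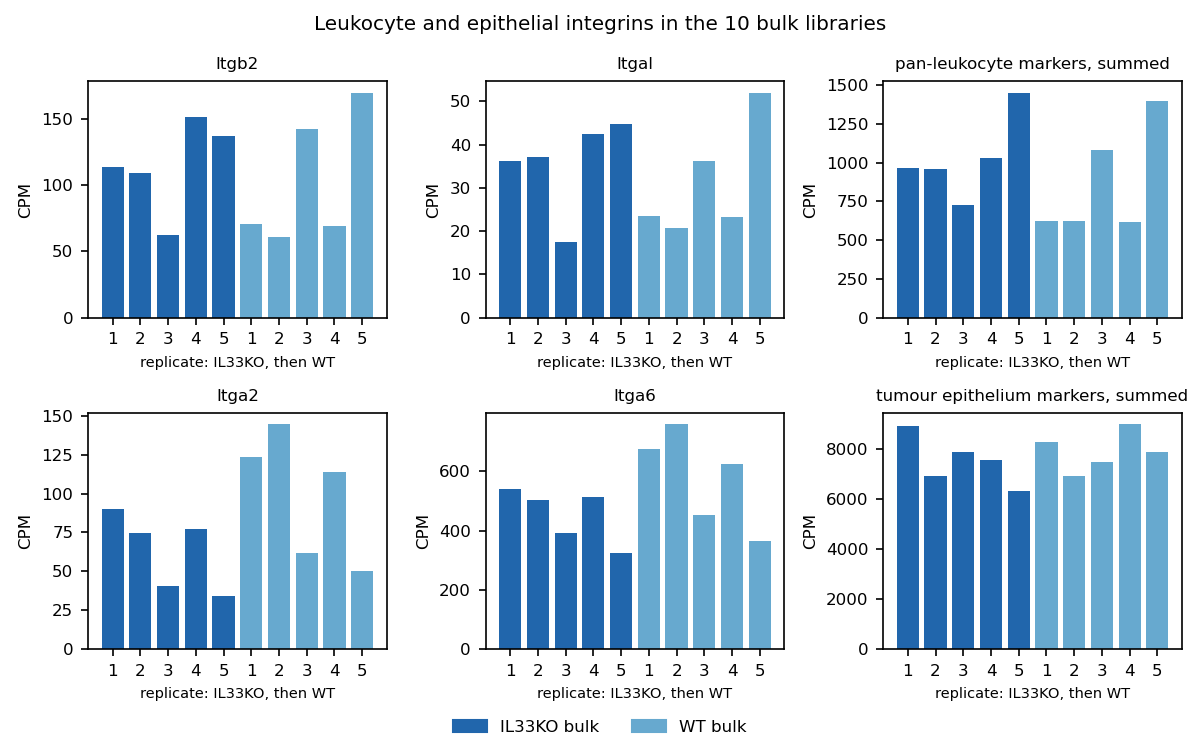
Level in CPM of Itgb2, Itgal, Itga2 and Itga6 and the summed level of 10 pan-leukocyte and 8 tumour epithelium markers in each bulk library, IL33KO replicates 1 to 5 left of WT replicates 1 to 5, on axes from 0. WT libraries 3 and 5 stand out as high for Itgb2 (143 and 170 CPM) and low for Itga2 (61.5 and 50.04 CPM).

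Around the members, 4 further lists of the pathway were counted, beside 31.3% of all genes higher and 31.7% lower in IL33KO and 33.7% and 34.3% in WT hosts. Of 21 genes that switch integrins on from inside the cell, 15 were higher and 4 lower in sorted libraries in IL33KO and 15 and 5 in WT hosts, with a median log2 difference of 1.37 in IL33KO and 1.54 in WT hosts. Skap2, an adaptor of integrin activation, averaged 181 ± 15.7 CPM in IL33KO sorted against 69.1 ± 3.15 CPM in IL33KO bulk libraries (log2 1.39, SE 0.08) and 200 ± 15.5 CPM in WT sorted against 68.0 ± 5.38 CPM in WT bulk libraries (log2 1.55, SE 0.08). Apbb1ip, which encodes RIAM, a link between Rap1 and talin, differed by 3.07 (SE 0.20) and 3.35 (SE 0.20), and Rassf5, which encodes the Rap1 effector RAPL, by 2.62 (SE 0.17) and 2.73 (SE 0.17).

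The 24 genes that signal from bound integrins split, with 12 higher and 10 lower in IL33KO and 12 and 11 in WT hosts. Lyn and Fgr, Src-family kinases of myeloid cells, had the smallest p values. Lyn differed by 2.58 (SE 0.11) in IL33KO and 2.68 (SE 0.11) in WT hosts, and Fgr by 3.55 (SE 0.18) and 3.77 (SE 0.18). Of 17 genes for selectin ligands and L-selectin, 8 were higher and 6 lower in IL33KO and 8 and 7 in WT hosts. Fut7, the fucosyltransferase that finishes selectin ligands on leukocytes, differed by 2.75 (SE 0.34) and 3.00 (SE 0.35), Fut4, its relative, by 1.71 (SE 0.18) and 1.42 (SE 0.18), and Podxl, a sialomucin of epithelium and vessels, by −2.26 (SE 0.26) and −2.74 (SE 0.27).

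Other integrin ligands were lower in sorted libraries more often than higher: of 24 tested, 3 were higher and 15 lower in IL33KO and 4 and 13 in WT hosts, with a median log2 difference of −1.42 in IL33KO and −1.08 in WT hosts. Cdh1, E-cadherin and the ligand of the Itgae and Itgb7 pair, averaged 294 ± 53.2 CPM in IL33KO sorted against 963 ± 108 CPM in IL33KO bulk libraries (log2 −1.71, SE 0.17), and 246 ± 58.7 CPM in WT sorted against 1151 ± 219 CPM in WT bulk libraries (log2 −2.23, SE 0.17). Tgfb1, whose latent form is a ligand of alpha-v integrins, was among those higher, by 1.69 (SE 0.17) in IL33KO and 2.13 (SE 0.18) in WT hosts.

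The comparison of host genotypes asks whether the lack of IL-33 in the host changes these genes in the leukocytes or in the tumour. In sorted leukocytes 0 of the 33 members tested passed the edgeR test, where 2 of 16731 genes did (0.012%). Of those 2 genes 1 was higher and 1 lower (0.00598% each), both at least 2-fold. Sele was too low to test. At an unadjusted p under 0.05 there were 5 members (Itga2, Itgb5, Itgb8, Selplg and the second Itgam row), beside 12.9% of all genes. DESeq2 gave 2 members, Selplg and the second Itgam row, where it called 3.38% of all genes, while voom with sample weights gave 1, the second Itgam row, and 2.39% of all genes. DESeq2 gave an adjusted p to only 12810 of the 16731 genes, and all its 566 calls are among these. No member's libraries were free of overlap, where 3.69% of all genes were. The median log2 difference was −0.00 over members and 0.02 over all genes.

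Selplg had the smallest p among members other than the second Itgam row. It read 387, 374, 365, 455 and 397 CPM in IL33KO sorted and 590, 560, 443, 422 and 553 CPM in WT sorted libraries. Of the 5 IL33KO libraries 4 were below every WT library, and library 4 overlapped. Its log2 change was −0.37 (SE 0.12, 95% interval −0.62 to −0.11), and the adjusted p was 0.243 in edgeR and 0.0416 in DESeq2. The 9 macrophage markers summed to 6061 to 9743 CPM in the same IL33KO sorted and 10265 to 12612 CPM in the same WT sorted libraries, without overlap. None of the 9 was called, and their median log2 difference was −0.24. Their part in the Selplg values was not tested.

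The second Itgam row read 3.13 to 4.38 CPM in IL33KO sorted and 3.79 to 9.10 CPM in WT sorted libraries. Its log2 change was −0.84 (SE 0.23, edgeR adjusted p = 0.185, DESeq2 0.0131, limma voom 0.0474), while the main Itgam row, with far more counts, had −0.28 (SE 0.20, 95% interval −0.73 to 0.17). Itgb8, an alpha-v partner that activates TGF-beta, read 2.73, 2.21, 1.44, 1.52 and 1.62 CPM in IL33KO sorted and 0.890, 0.965, 1.48, 1.40 and 0.857 CPM in WT sorted libraries (log2 0.78, SE 0.25, edgeR adjusted p = 0.256). The groups overlapped between 1.44 and 1.48 CPM. Itga2 read 11.5 to 24.4 CPM in IL33KO sorted and 5.45 to 16.8 CPM in WT sorted libraries (log2 0.71, SE 0.30, adjusted p = 0.353), and Itgb5 read 214 to 310 CPM and 273 to 337 CPM (log2 −0.26, SE 0.10, adjusted p = 0.331). Library 3 of each genotype had the highest Itga2 value of its group and also the highest summed acinar marker level, 47034 CPM in IL33KO and 4836 CPM in WT, where the other libraries ran from 722 to 8022 CPM; of the 8 acinar markers Amy2a2 was at 0 in all libraries. With an acinar marker score as a covariate in the edgeR fit, 0 members passed. The Itga2 log2 change lay between 0.52 and 0.97 over all 16 settings, that one included. How far acinar RNA bears on Itga2 was not tested further.

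Among the leukocyte chains, the log2 difference between genotypes was −0.14 for Itgb2 (95% interval −0.53 to 0.25), 0.08 for Itgal (−0.28 to 0.43), −0.10 for Itgax (−0.36 to 0.17) and 0.06 for Itgae (−0.52 to 0.65). Itga4 had 0.29 (SE 0.13, adjusted p = 0.392), with 160 to 234 CPM in IL33KO sorted and 131 to 192 CPM in WT sorted libraries.

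In bulk tumour 0 of 34 members passed, and 0 of 17258 genes did (0%). At an unadjusted p under 0.05 there was 1 member, Itgb3, beside 6.36% of all genes. DESeq2 gave 0 members (0.29% of all genes), while voom with sample weights gave 8 of 34, where it called 19.5% of all genes. Itgb3, which pairs with Itgav or, on platelets, Itga2b, read 49.2, 40.4, 46.9, 34.3 and 33.9 CPM in IL33KO bulk and 31.7, 31.4, 34.4, 29.7 and 37.0 CPM in WT bulk libraries. Only the top 3 IL33KO libraries lay above all WT ones, and IL33KO minus WT was 0.31 on the log2 scale (SE 0.13, adjusted p = 0.724). No member's libraries were free of overlap (0.661% of all genes). The log2 difference was 0.15 for Itgb2 (95% interval −0.55 to 0.85) and 0.06 for Itgam (−0.73 to 0.85), wider intervals than in sorted leukocytes. All 10 pan-leukocyte markers were above 0, with a median log2 difference of 0.25 and none called.

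**Figure D5:**
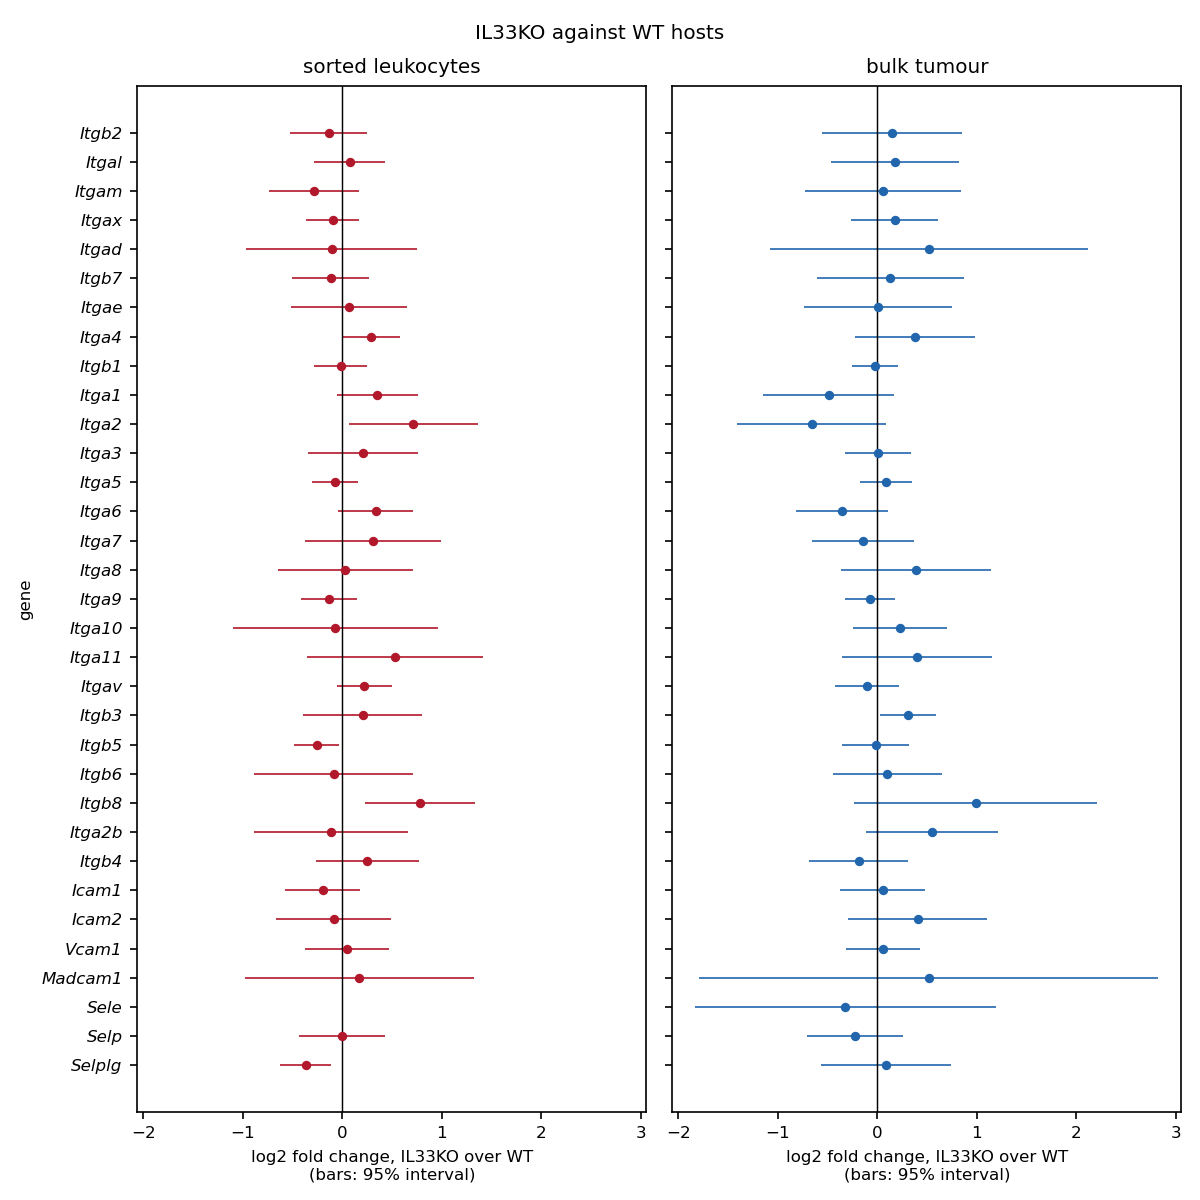
Log2 fold change of IL33KO over WT for the 33 symbols in sorted leukocytes (left) and bulk tumour (right), with 95% intervals; Sele was not tested in sorted leukocytes. No member passed the adjusted threshold in either panel, and the intervals of Itgb2 run from −0.53 to 0.25 in sorted and from −0.55 to 0.85 in bulk libraries.

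Whether the genotype difference itself differed between compartments was tested as an interaction over all 20 libraries. It passed for 0 of 34 members and 0 of 18145 genes (0%), with 3 members at an unadjusted p under 0.05 (11.2% of all genes). DESeq2 gave 0 members (0.022% of all genes), and voom with sample weights gave 9 of 34, where it called 18.8% of all genes. The 3 were Itga2 (log2 1.33, SE 0.49), Itga6 (0.66, SE 0.29) and Itga1, a collagen receptor chain (0.80, SE 0.38), each with an edgeR adjusted p of 0.445. In each the IL33KO minus WT value was positive in sorted and negative in bulk libraries: 0.71 and −0.66 for Itga2, 0.34 and −0.35 for Itga6, and 0.35 and −0.49 for Itga1. Itga2, Itga6 and Itga1 also had their lowest WT bulk values in libraries 3 and 5, those with high leukocyte markers. In IL33KO bulk their lowest values were again in libraries 3 and 5, which had the lowest and the highest pan-leukocyte sum (728 and 1452 CPM). IL33KO bulk libraries 3 and 5 (1814 and 170 CPM) and WT bulk library 5 (9707 CPM) also had the highest acinar sums, while WT bulk library 3 did not. The part of this spread and of acinar RNA in the interaction was not tested. The 4 pathway lists had 0 genes called in the genotype comparisons and in the interaction.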

How the data were processed

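The authors deposited raw HTSeq counts per gene; the submitters' processing notes name Picard, HTSeq, DESeq and build mm10. The aligner is not given in the sources used here, nor is how HTSeq treated strand, so overlapping genes are uncertain. A second deposited table, scaled by DESeq size factors, was not used. The 5 summary lines of the count table held 26.1 to 40.5% of a library and were left out. Groups and replicate numbers came from titles. The members and gene lists were chosen with earlier results of these data known.

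Counts were fitted in R 4.3.3 with edgeR 4.0.16 (filterByExpr, TMM, robust quasi-likelihood test, two-sided), each compartment alone for genotype and all 20 libraries for sorted against bulk and the interaction. P-values were Benjamini-Hochberg adjusted over all genes tested, threshold 0.05. The fit was tested on simulated data. CPM per kilobase used exon lengths of GENCODE M21, which matched all 34 rows. Permutations numbered 100000, within genotype. All members are named; of each further list, at most 3 genes by smallest p per comparison, of which 2 are not reported here. Alternatives were DESeq2 1.42.0, limma 3.58.1 voom, other size factors, no filter, covariates, a replicate block and leaving out libraries. No replicate pair agreed within sampling noise (lowest chi-square per gene 18.4).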

Additional observations from a re-analysis of the deposited data

Results flagged for a closer look

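Within groups of 5 libraries, the highest or lowest library stood apart from the other 4 by Dixon's test in 5 of 136 groups of member values; chance flags about 1 in 20. The level of Itga9 was 93.3 CPM in WT sorted library 3, beside 78.2 to 80.9 CPM in the other 4. Itgb1 reached 749 CPM in IL33KO bulk library 1, beside 640 to 660 CPM. In WT bulk library 5 both Madcam1 and Sele stood apart, with Madcam1 at 2.10 CPM beside 0.0137 to 0.387 CPM and Sele at 1.12 CPM beside 0.0987 to 0.181 CPM. Itgad was at 1.29 CPM in WT bulk library 3, beside 0.156 to 0.387 CPM in the others.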

How the results depend on the processing

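Between sorted and bulk libraries the counts of members called moved little: 28 to 30 in IL33KO and 30 to 31 in WT hosts with a library left out, and 29 and 30 with a replicate block. The share of all genes called moved little too. It was 58.8 to 61.6% in IL33KO and 64.3 to 69.4% in WT hosts with a library left out, and 59.6% and 65.4% with a replicate block. Madcam1 passed in WT hosts without WT bulk library 5 (log2 2.26, adjusted p = 0.0146), and Itgb3 in IL33KO hosts without IL33KO sorted library 3 (log2 −0.50, adjusted p = 0.0496). For genotype in sorted leukocytes the 2 genes called became 566 in DESeq2, 400 in limma voom, 1 with a replicate block and 1 to 3 with a library left out, and the 0 members called became 2 in DESeq2 and 1 in limma voom. In bulk tumour the 0 genes called became 50 in DESeq2, 3371 in limma voom and 0 to 19 with a library left out (19 without WT bulk library 5), and the members 8 in limma voom. For the interaction the 0 genes became 4 in DESeq2, 1 with DESeq2 size factors, 3406 in limma voom and 0 to 27 with a library left out, and the members 9 in limma voom. The cause was not tested. The bulk partner pairs past the threshold numbered 5 with Pearson's r and 10 with Spearman's rho, an alternative chosen after seeing the data; both pool bulk libraries that fall apart by leukocyte level, so neither is given as a result. With the longest transcript in place of all exons, 59 of 136 levels per length moved by more than 1 SD. Same-numbered IL33KO and WT libraries did not deviate together in every pair (correlations −0.204 to 0.453 in sorted and −0.114 to 0.696 in bulk libraries). Same-numbered sorted and bulk libraries did not either (−0.357 to 0.328 in IL33KO and −0.188 to 0.212 in WT hosts). The numbers are therefore not taken as pairs. Between genotypes 3 of 5 sorted and 1 of 5 bulk libraries correlated best with their own number. Between compartments 1 of 5 did in each genotype. Depth limits the members with few counts, such as Sele, Madcam1 and Itga11.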
